A study of Mus musculus with 8 samples.

Results

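The allantois is the extraembryonic mesodermal bud that grows from the posterior end of the gastrulating mouse embryo, and its cells were examined here in chimaeric embryos at E8.5. Cells were taken as allantois cells when they held at least 1 unique molecular identifier (UMI, one counted RNA molecule) of Tbx4, a T-box transcription factor of the allantois and hindlimb, and at least 1 UMI of any of Hoxa10, Hoxa11 and Hoxa13, the posterior genes of the Hoxa cluster. This rule found 4310 of the 37186 E8.5 cells kept after quality control, which is 11.6%, while 49838 cells were kept over both stages. The 4 genes of the rule chose the cells, so their values in these cells are descriptive and were not tested. The Hoxa genes were tested only in cells chosen by other genes.

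Cells of 2 genotypes were compared. The Tet-TKO cells descend from ES cells without functional Tet1, Tet2 and Tet3 that carry an H2B-tdTomato reporter on a mixed C57BL/6J-129Sv background, and were obtained as the tdTomato+ fraction of 4 libraries. The WT host cells are the tdTomato- fraction of 2 libraries and descend from the C57BL/6J blastocysts that received the ES cells. Embryos were pooled before sorting, the knockout cells are of 1 ES cell line, and genotype cannot be told apart from strain background or from a history of culture and injection. No injected wild-type ES cells were among these libraries.

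In the mouse the allantois elongates towards the chorion, fuses with it through the adhesion molecule VCAM1 and its integrin partner, and supplies the vessels of the umbilical cord and the fetal side of the placenta. It forms endothelium by itself from precursors that express the VEGF receptor KDR, and its growth depends on BMP4, on T-box factors and on caudal genes such as those of the Cdx family. TET dioxygenases oxidise 5-methylcytosine, which starts active DNA demethylation. Gene expression is the readout here, and DNA methylation was not analysed.

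The 6 libraries held between 65601218 and 136982886 UMIs. Tet-TKO libraries 1 to 4 contained 1330, 1442, 254 and 97 allantois cells, and the WT host libraries 736 and 451. Values per library are given below in this order. Tet-TKO libraries 3 and 4 stood apart, with median UMIs per allantois cell of 44571.5 and 77009 against 14252.5 to 21778 in the other 4 libraries. Counts summed over the allantois cells differed between either of them and Tet-TKO libraries 1 or 2 by a chi-square of 38.86 to 43.9 per degree of freedom, against 4.53 to 6.79 for the other pairs within a genotype. Cells with a tdTomato UMI made up 71.9%, 68.0%, 92.9% and 93.8% of the Tet-TKO and 0.679% and 0.443% of the WT host allantois cells. Scrublet marked 9.40%, 10.7%, 3.15%, 0%, 9.78% and 13.3% of the allantois cells as doublets. Of the other cells it marked 4.75%, 7.08%, 1.66%, 0.878%, 6.29% and 6.91%, so the share was higher in allantois cells except in Tet-TKO library 4. E8.5 libraries shared at most 27 cell barcodes pairwise, and 1 shared barcode belonged to an allantois cell in both libraries (Tet-TKO library 2 and WT host library 1). Nothing in the descriptions states that libraries of a genotype come from separate pools of embryos, so the p-values measure the spread between libraries, which may be technical.

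The label of the population was checked on markers outside the rule, with neural cells (Sox2 with Sox1, Pax6 or Hes3, and no Tbx4) as the reference for RNA that does not come from the cell itself. Each cell was thinned to 5000 UMIs for this check. Pitx1, a hindlimb and allantois homeobox gene, then had a UMI in 63.9% to 81.1% of allantois cells and in 1.29% to 2.10% of neural cells across the 6 libraries. Before thinning, the Pitx1 shares were 90.3% to 94.9% and 3.39% to 7.77%. Spin2c, a spindlin family gene, was found in 76.2% to 85.4% of allantois cells and in 4.55% to 5.92% of neural cells.

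Phlda2, an imprinted gene that restricts placental growth, had a UMI in 95.9% to 99.0% of thinned allantois cells against 5.58% to 19.2% of neural cells. The mesodermal factor Hand1 was seen in 49.5% to 74.0% against 0.954% to 3.16%, and the ligand Bmp4 in 40.9% to 54.6% against 1.98% to 3.43%. Cdx2, a caudal homeobox gene that caudal neural cells express as well, separated the populations less, with 37.3% to 51.6% of allantois cells and 13.03% to 29.9% of neural cells. Against the nearest extraembryonic mesoderm (cells with UMIs of Hand1, Bmp4 and Foxf1 and none of Tbx4), the contrast was smaller. There Pitx1 was found in 29.4% to 42.6% of thinned cells, Spin2c in 47.4% to 61.9% and Phlda2 in 46.1% to 84.5%, each range below that of allantois cells, while Hand1 and Bmp4 define that mesoderm and tell nothing between the populations. The markers thus set the cells apart from neural cells in each of the 6 libraries, and from the mesoderm in degree.

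**Figure D1:**
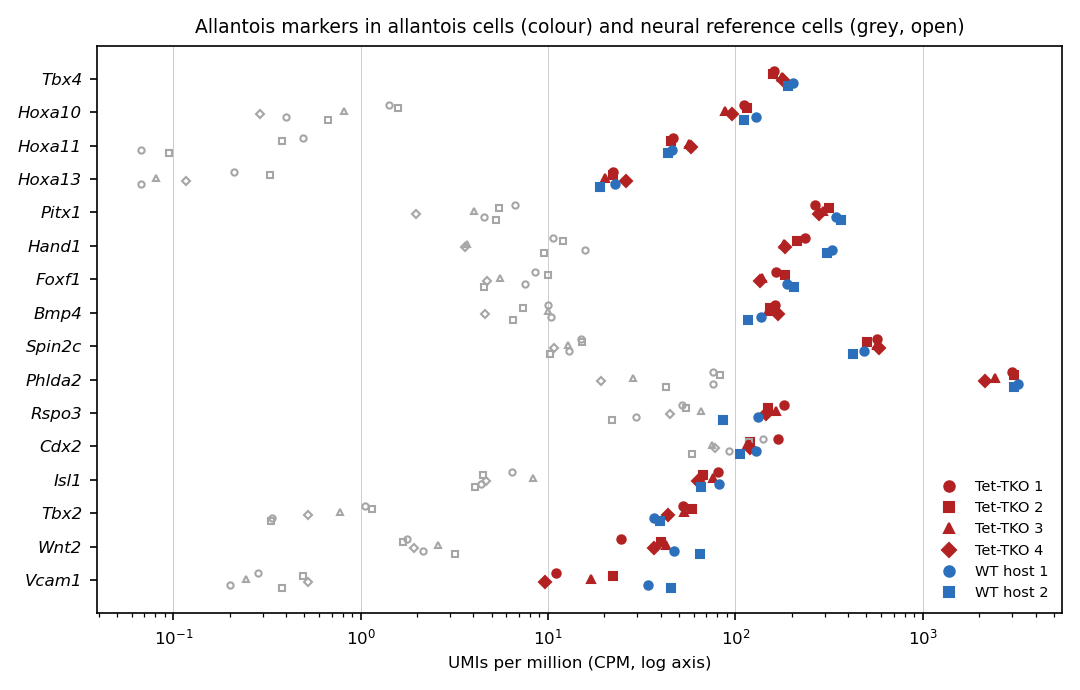
Levels of 16 allantois markers in CPM (UMIs scaled to the same total in each library, log axis) in allantois cells of each library (colour) and in neural reference cells of the same libraries (grey, open, not drawn at 0). Spin2c lay between 423 and 583 CPM in allantois cells and between 10.3 and 15.1 CPM in neural cells, whereas the levels of Cdx2 in the populations came close to each other.

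Of the 3 Hoxa genes of the rule, Hoxa10 was most often detected, in 84.3% to 97.9% of the allantois cells of a library, followed by Hoxa11 in 47.9% to 89.7% and Hoxa13 in 25.7% to 76.3%. All 3 Hoxa genes were found together in 42.9% and 73.2% of cells of Tet-TKO libraries 3 and 4, which have the most UMIs per cell, and in 9.53% to 20% of cells of the other libraries. Cells just inside the rule, with exactly 1 Tbx4 and 1 posterior Hoxa UMI, made up 2.06% to 11.8% of a library's allantois cells. Just outside it were cells with Tbx4 and no posterior Hoxa UMI (175, 326, 35, 15, 138 and 130 cells) and cells with posterior Hoxa and no Tbx4 UMI (615, 794, 129, 63, 271 and 244 cells).

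In both groups just outside the rule, Phlda2, Pitx1 and Spin2c lay below their level in allantois cells and above that in neural cells of each library, while Cdx2 did not. Phlda2 stood at 2149 to 3228 CPM in allantois cells, at 303 to 2176 CPM in cells with Tbx4 alone, at 258 to 1497 CPM in cells with posterior Hoxa alone and at 19.06 to 82.3 CPM in neural cells. Pitx1 lay between 265 and 368 CPM inside the rule, between 37.1 and 249.9 CPM in cells with Tbx4 alone, with the lowest of these values in Tet-TKO libraries 3 and 4, between 126 and 193 CPM in cells with posterior Hoxa alone and between 1.98 and 6.69 CPM in neural cells. Spin2c was at 72.3 to 391 CPM with Tbx4 alone and at 147 to 298 CPM with posterior Hoxa alone. Cdx2 was at 106 to 169 CPM inside the rule, 88.5 to 191 CPM with Tbx4 alone and 148 to 230 CPM with posterior Hoxa alone, so that its levels overlapped those inside the rule or exceeded them.

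Levels of the rule genes themselves are given in CPM, that is UMIs of a gene scaled to the summed UMIs of the allantois cells of a library. Tbx4 stood at 160, 159, 176 and 180 CPM in Tet-TKO and at 203 and 190 CPM in WT host cells. Hoxa10 was at 112, 115, 87.7 and 95.4 CPM against 129 and 111 CPM. Hoxa11 was at 46.2, 45.5, 56.6 and 57.8 CPM against 46.0 and 43.9 CPM. Hoxa13, the last gene of the Hoxa cluster, was at 22.2, 22.1, 20.1 and 26.1 CPM against 22.9 and 18.9 CPM. The Tet-TKO levels of Tbx4 lay below both WT host levels, and those of Hoxa10, Hoxa11 and Hoxa13 overlapped with them.

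To compare the abundance of allantois cells between genotypes, the rule was applied after each cell had been thinned to 5000 UMIs, because a rule on UMIs of sparse genes finds more cells in deeper libraries. Allantois cells then made up 6.94%, 6.07%, 3.82% and 3.16% of Tet-TKO cells and 4.05% and 1.91% of WT host cells. Tet-TKO libraries 1 and 2 lay above both WT host libraries and libraries 3 and 4 lay between them. The means were 5.00% ± 1.80 (SD, n = 4) and 2.98% ± 1.51 (SD, n = 2), a difference of 2.02 percentage points (two-sided exact permutation test over libraries, p = 0.4, where 15 splits allow no p under 0.133). Of the 1317, 1419, 252, 97, 728 and 440 allantois cells with at least 5000 UMIs, 469, 548, 85, 29, 312 and 159 met the rule after thinning. The thinned share thus depends on the levels of the rule genes per cell as well as on the number of cells. Tbx4 was lower in each Tet-TKO library, as given above, while the Hoxa genes overlapped. The part of these levels in the shares was not tested.

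Without thinning the shares were 18.9%, 15.1%, 11.05% and 9.62% against 8.91% and 4.99%, and each Tet-TKO library exceeded both WT host libraries (exact permutation p = 0.133). The thinned difference was 0.948 percentage points without WT host library 2 and 3.08 points without WT host library 1. Blood cells are part of the total, and with cells of over 5% haemoglobin UMIs left out of it the difference was 1.43 points. In no setting did the exact p fall under 0.133, so the design could not show a difference in abundance. The paper chose its cell types otherwise, by mapping cells to a reference atlas. It reports an increase in extraembryonic mesodermal tissue, allantois included, among Tet-TKO cells at E8.5. In a published control it found negligible differences in proportions between injected and host wild-type cells.

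**Figure D2:**
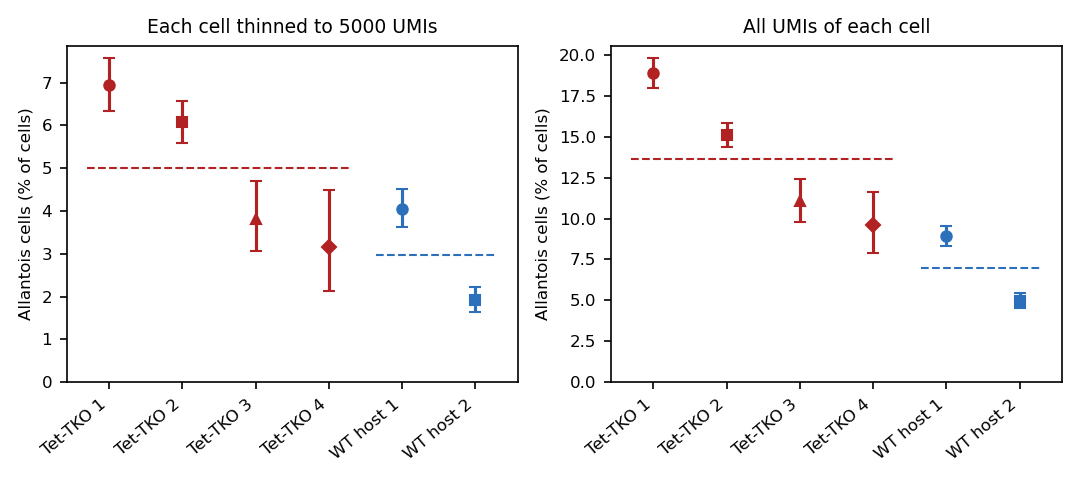
Share of allantois cells among kept cells in each library, in percent, after thinning to 5000 UMIs (left) and with all UMIs (right), with 95% exact binomial intervals that cover counting error only and dashed lines at the means of the genotypes. After thinning, 2 of 4 Tet-TKO libraries lie above both WT host libraries, and before thinning all 4 do.

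Expression in allantois cells was compared on counts summed per library with the quasi-likelihood test of edgeR. A gene passed at an adjusted p below 0.01 and an absolute log2 fold change of at least 1. Of 13809 genes tested, 42 rose (0.304%) and 88 fell (0.637%) in Tet-TKO cells, 130 in all (0.941%). The median log2 fold change over all genes was 0.01, and the 4 Tet-TKO and 2 WT host libraries did not overlap for 29.5% of the genes. An unadjusted p under 0.05 was found for 2114 genes, 15.3%, the share against which such counts in the lists below are read. Calls in the lists are read against the shares of called genes above. In a short list, 0 calls is near those shares and no result about the list. The number of calls rested on having both WT host libraries, since 3 genes rose and 6 fell without WT host library 1 and 1 rose and 6 fell without WT host library 2. Of the genes named below, Cck, Ttr, Apoa1, Rps3a1 and Rps15a-ps8 passed without either of them. DESeq2 called 112 genes higher and 194 lower. In each of the 17 alternatives that kept both WT host libraries, 27 of the 130 genes passed. These included Snrpn, Zdbf2, H13, Asb4, Gas6, Naaa, Rgs10, Ttr and Rps3a1. Cck, Rprm, Cxcl12, Acvrl1, Ndn and Magel2 were not among the 27, so each failed or was not tested in part of these alternatives. Log2 fold changes in neural cells are set beside some values for comparison, and there 0.87% of the genes tested passed in either direction.

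Of the 12 tested genes of the allantois list outside the rule, 0 passed the test, where 0.941% of all genes did. For so short a list 0 calls is near that share and no result about these genes. Their median log2 fold change was −0.13. Of these genes 8 had an unadjusted p under 0.05 against 15.3% of all genes, 10 had libraries that did not overlap against 29.5% of all genes, and DESeq2 called 1, Vcam1, as lower. Vcam1, which binds the α4 integrin of the chorion, stood at 10.99, 22.2, 17.0 and 9.61 CPM in Tet-TKO and at 34.2 and 45.3 CPM in WT host cells. All 4 Tet-TKO levels were below both WT host levels, at a log2 fold change of −1.38 ± 0.32 (SE) and an adjusted p of 0.0688.

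Hand1 was at 235, 214, 182 and 184 CPM against 328 and 308 CPM (log2 fold change −0.64 ± 0.16, adjusted p = 0.0962), again without overlap. The Wnt ligand Wnt2 had a log2 fold change of −0.64 (adjusted p = 0.195) and Rspo3, a secreted enhancer of Wnt signalling that placental vessels need, one of 0.56 (adjusted p = 0.232). Pitx1 was at 265, 315, 292 and 279 CPM in Tet-TKO and at 346 and 368 CPM in WT host allantois cells, a log2 fold change of −0.31 with an adjusted p of 0.249.

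The Hox genes that the rule did not use held no call either. Among 10 tested posterior Hox genes 0 passed in edgeR and DESeq2, 4 had an unadjusted p under 0.05, and the median log2 fold change was 0.03. Hoxd13, the most posterior gene of the Hoxd cluster, was at 10.1, 9.78, 13.4 and 14.3 CPM against 5.87 and 6.94 CPM, higher in every Tet-TKO library (log2 fold change 0.88 ± 0.19, adjusted p = 0.0579). Hoxc11 had a log2 fold change of 0.57 and Hoxb9 one of −0.42, at adjusted p of 0.177 and 0.208. Of the 23 trunk and anterior Hox genes, 0 passed in either tool and 3 had an unadjusted p under 0.05, with a median log2 fold change of −0.11.

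Because the level of the Hoxa genes is no test within cells chosen by them, they were also tested in the 4505 cells with at least 1 UMI each of Tbx4 and Pitx1. These share 3958 cells with the allantois cells, which is 91.8% of the latter and 87.9% of the former, so the test rests largely on the same cells. Hoxa10 had a log2 fold change of −0.17 (adjusted p = 0.628), Hoxa11 of 0.25 (adjusted p = 0.439) and Hoxa13 of 0.19 (adjusted p = 0.619). Of these 3 genes 0 passed in edgeR or DESeq2, and 0 had an unadjusted p under 0.05, the lowest being 0.115, where 1.19% of all genes tested in these cells passed.

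Genes of caudal progenitors gave single differences of larger size. Among 12 tested genes, 0 passed in edgeR, 5 had an unadjusted p under 0.05, and DESeq2 called T as higher and Cdx4 as lower. T (brachyury), the T-box factor of primitive streak and early allantois, was at 11.9, 9.14, 7.502 and 8.94 CPM in Tet-TKO and at 3.27 and 1.05 CPM in WT host cells. Its Tet-TKO levels all exceeded the WT host levels (log2 fold change 2.03 ± 0.42, adjusted p = 0.0461), and in neural cells the log2 fold change of T was 1.16. Cdx4, a caudal homeobox gene that acts with Cdx2 in the allantois, was at 35.1, 21.5, 26.9 and 47.1 CPM against 63.9 and 73.5 CPM, with all Tet-TKO levels lower (log2 fold change −1.09 ± 0.26, adjusted p = 0.0752). Nkx1-2, a gene of the caudal epiblast, had a log2 fold change of 0.80 with an adjusted p of 0.0969.

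The 26 mesoderm transcription factors held 0 genes that passed in either tool, 10 with an unadjusted p under 0.05 (15.3% of all genes), and a median log2 fold change of −0.03. Prrx1, a homeobox factor of limb and body wall mesenchyme, was at 61.0, 72.6, 89.1 and 84.1 CPM against 47.1 and 55.3 CPM (log2 fold change 0.57, adjusted p = 0.0828). Hand2 followed at 0.65 and Snai2, a driver of mesenchymal transition, at 0.54, with adjusted p of 0.157 and 0.169.

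The signalling lists held no called gene in edgeR or DESeq2. They do not hold every gene of a pathway. Acvrl1, a receptor for BMP9, and Daam2, a formin of the Wnt pathway, are outside them and passed as lower, as given below. In the BMP pathway 0 of 24 genes passed and 6 had an unadjusted p under 0.05, where 15.3% of all genes did. The antagonist Fst had a log2 fold change of −0.86 and the receptor Bmpr1a of 0.37, with adjusted p of 0.177 and 0.180. Bmp4 itself was at 162, 154, 149 and 168 CPM against 137 and 117 CPM, higher in each Tet-TKO library, with a log2 fold change of 0.32 and an adjusted p of 0.276.

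In the Wnt pathway 0 of 26 genes passed and 6 had an unadjusted p under 0.05 (15.3% of all genes), led by the antagonist Sfrp5 at a log2 fold change of −1.26 (adjusted p = 0.158). The FGF pathway had 0 of 18, with 6 under an unadjusted p of 0.05 and a median of 0.32. Its leading genes were the target Etv4 (0.68, adjusted p = 0.123), the ligand Fgf8 (0.96, adjusted p = 0.175) and the phosphatase and feedback target Dusp6 (−0.62, adjusted p = 0.175). In the Nodal pathway 0 of 8 passed, 2 had an unadjusted p under 0.05, and the inhibitors Smad7 and Lefty2 had log2 fold changes of −0.30 and −1.38 at adjusted p of 0.199 and 0.227. Among 13 genes of retinoic acid handling 0 passed and 2 were under an unadjusted p of 0.05, with the binding protein Crabp2 at a log2 fold change of 0.91 and an adjusted p of 0.0733.

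In the vasculogenesis list, 1 of 27 genes fell, where 0.637% of all genes did, 0 rose, 11 had an unadjusted p under 0.05 (15.3% of all genes), and the median log2 fold change was −0.61 against 0.01 over all genes. The gene that fell was Plvap, which forms the diaphragms of endothelial openings, at 6.52, 5.41, 9.86 and 8.00 CPM in Tet-TKO and 20.2 and 19 CPM in WT host cells. Every Tet-TKO level was lower (log2 fold change −1.43 ± 0.20, adjusted p = 0.00995), and the log2 fold change in neural cells was −1.57. Egfl7, secreted by endothelium, was at 73.1, 59.4, 81.1 and 66.4 CPM against 109 and 104 CPM (log2 fold change −0.61, adjusted p = 0.0513).

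Cd34 and Pecam1, surface proteins of endothelium, had log2 fold changes of −1.27 and −1.40 at adjusted p of 0.0666 and 0.0678. DESeq2 called Plvap and Sox18 as lower and Nrp2 as higher. Acvrl1, a receptor of endothelium outside this list, passed as lower in edgeR and is given below. The summed level of the 11 endothelium markers was 136, 136, 193 and 152 CPM in Tet-TKO and 212 and 225 CPM in WT host allantois cells, and 55.0 to 79.5 against 84.7 and 93.5 CPM in neural cells. The part of this background in the vascular values was not tested.

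Adhesion and attachment genes gave 0 of 24 in edgeR, 6 with an unadjusted p under 0.05, and a median log2 fold change of 0.26. The laminin receptor chain Itga6, outside this list, passed as higher and is given below. Itga4, the integrin chain that pairs with VCAM1, was at 14.5, 13.6, 28.9 and 22.3 CPM in Tet-TKO and 7.81 and 8.52 CPM in WT host cells. All Tet-TKO levels of Itga4 were higher, at a log2 fold change of 1.25 ± 0.30 and an adjusted p of 0.0726, and DESeq2 called Itga4 as higher and Vcam1 as lower. Among 18 collagens 1 fell and 0 rose, against 0.637% and 0.304% of all genes. This was Col9a1, at 4.97, 3.68, 2.87 and 3.34 CPM against 17.9 and 19.4 CPM (log2 fold change −2.27 ± 0.24, adjusted p = 0.00314), with a log2 fold change of −0.72 in neural cells. Col5a2, a fibrillar collagen, had a log2 fold change of −2.43 and missed the threshold at an adjusted p of 0.0116. DESeq2 called both collagens as lower.

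Of 24 genes of smooth muscle and mesenchyme 0 passed in edgeR and 7 had an unadjusted p under 0.05, and DESeq2 called Igfbp5 as higher. The actin-binding gene Tpm1 was at 881, 970, 826 and 843 CPM in Tet-TKO and at 538 and 472 CPM in WT host cells. Its Tet-TKO levels did not overlap those of WT host cells, and the log2 fold change of 0.80 ± 0.15 (adjusted p = 0.0291) missed both the fold and the adjusted p threshold. Igfbp5, a binding protein of insulin-like growth factors, had a log2 fold change of 1.08 in allantois and of 1.02 in neural cells (adjusted p = 0.0331 in allantois cells). In the glycolysis list 0 of 22 genes passed in either tool, 4 had an unadjusted p under 0.05, the median log2 fold change was −0.29, and Pkm, pyruvate kinase, had a log2 fold change of −0.69 with an adjusted p of 0.0688.

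Imprinted genes held the most calls among the lists of developmental genes. These genes are expressed from 1 parental allele under the control of DNA methylation inherited from a gamete. Of 41 tested, 4 rose and 2 fell, where 0.941% of all genes passed in either direction, and 23 had libraries that did not overlap against 29.5% of all genes. In all, 17 had an unadjusted p under 0.05 against 15.3% of all genes, and the median log2 fold change was 0.13. DESeq2 called 6 higher and 3 lower.

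Snrpn, a paternally expressed gene of the Prader-Willi region whose product belongs to the splicing machinery, was at 274, 247, 354 and 381 CPM in Tet-TKO and at 96.6 and 81.6 CPM in WT host cells. Its lowest Tet-TKO level was above the higher WT host level, at a log2 fold change of 1.80 ± 0.17 (adjusted p = 0.00220) in allantois and 1.30 in neural cells. From the same region, Ndn was at 213, 229, 235 and 217 CPM against 101 and 116 CPM (log2 fold change 1.04 ± 0.11, adjusted p = 0.00325, and 0.52 in neural cells). Magel2, its neighbour, was at 17.1, 14.8, 19.3 and 20.8 CPM against 6.54 and 5.50 CPM, a log2 fold change of 1.55 ± 0.18 (adjusted p = 0.00378) and 0.51 in neural cells.

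Zdbf2, a paternally expressed gene of chromosome 1, was at 83.4, 82.8, 126 and 113 CPM in Tet-TKO and 30.1 and 28.2 CPM in WT host cells, with no overlap (log2 fold change 1.78 ± 0.17, adjusted p = 0.00220, and 1.62 in neural cells). The genes that fell were H13, a signal peptide peptidase, and the maternally expressed Asb4. H13 was at 25.2, 27.7, 28.4 and 23.6 CPM against 74.0 and 76.9 CPM (log2 fold change −1.52 ± 0.12, adjusted p = 0.00143, and −1.44 in neural cells). Asb4 was at 10.3, 23.3, 12.3 and 13.9 CPM against 108 and 150.04 CPM, the largest fold change of the 6 (log2 fold change −3.09 ± 0.31, adjusted p = 0.00259, and −1.81 in neural cells).

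**Figure D3:**
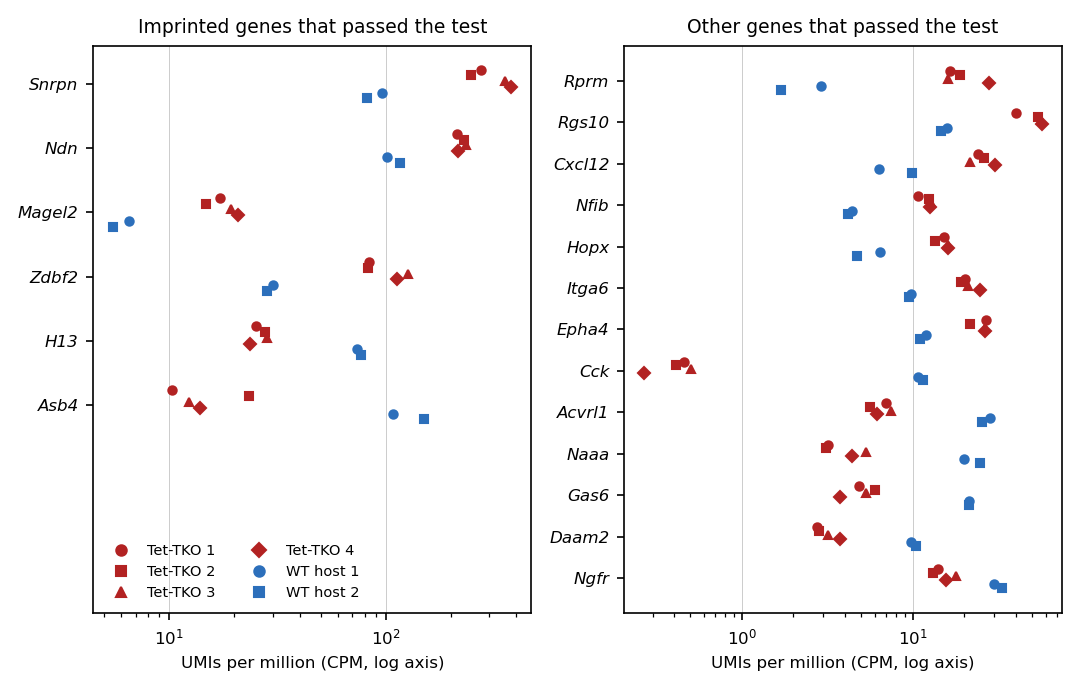
Levels in CPM (log axis) in allantois cells of each library for the 6 imprinted genes that passed the test (left) and for 13 other genes that passed (right), each point being 1 library. In each of the genes the 4 Tet-TKO libraries lie on one side of the 2 WT host libraries, such as 247 to 381 CPM against 81.6 and 96.6 CPM for Snrpn.

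Transcripts of the deleted Tet genes were still counted, so they do not check the genotype, which rests on the sort. Tet1 was at 7.34, 7.64, 11.5 and 15.1 CPM in Tet-TKO against 23.1 and 22.8 CPM (log2 fold change −1.20, adjusted p = 0.0465). Tet2 had a log2 fold change of 0.71 (adjusted p = 0.257) and Tet3 of −0.05 (adjusted p = 0.937), and the sign of the latter turned in several settings. Of 18 genes of the DNA methylation machinery, Tet genes included, 0 passed in edgeR, 6 had an unadjusted p under 0.05, and DESeq2 called Tet1 as lower. The reporter (tomato-td in the files) was at 87.2, 96.3, 118 and 135 CPM against 0.372 and 0.393 CPM.

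Among germline genes, which many cells silence by promoter methylation, 7 of 24 were expressed enough to be tested and 0 passed in edgeR, while 4 had an unadjusted p under 0.05. Stk31 was at 1.05, 1.46, 1.77 and 1.33 CPM against 0.149 and 0.131 CPM (log2 fold change 3.21, adjusted p = 0.0163), and DESeq2 called Sycp3, a component of meiotic chromosomes. Of 11 primed pluripotency genes 1 rose and 0 fell, where 0.304% and 0.637% of all genes did. Dppa4 was at 5.27, 7.14, 4.38 and 4.40 CPM in Tet-TKO and 0.520 and 0.262 CPM in WT host cells (log2 fold change 3.66 ± 0.45, adjusted p = 0.00551), with a log2 fold change of 3.37 in neural cells. DESeq2 called Dppa4 and Dppa5a as higher.

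Over all called genes at 10 CPM or more with non-overlapping libraries, sex-linked genes and the reporter apart, the 10 that rose most were Rps13-ps1, Rps15a-ps8, Rps3a3, AA465934, Eif3j2, Rprm, BC002163, Hmga1b, Wdfy1 and Sik2. Several are near-identical copies of expressed genes whose reads can be assigned to either copy. Rps3a3, a pseudogene, was at 4471, 4212, 3699 and 3673 CPM in Tet-TKO and 440.2 and 116 CPM in WT host cells, while its parent Rps3a1, a ribosomal protein gene, was at 227, 193, 249 and 294 CPM against 4373 and 4375 CPM. Counting can assign the reads of this pair to either copy, so neither value can be read as the level of a gene. In neural cells Rps3a1 had a log2 fold change of −3.78 and Rps3a3 of 5.19. Rps13-ps1, Rps15a-ps8, BC002163, Eif3j2 and Hmga1b are copies of the same kind, with log2 fold changes of 4.22, 3.93, 2.85, 3.26 and 2.35, and are uncertain for that reason.

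Wdfy1, an endosomal adaptor, was at 34.1, 33.1, 33.9 and 36.7 CPM against 7.88 and 6.03 CPM (log2 fold change 2.28 ± 0.17, adjusted p = 0.00105, and 2.99 in neural cells). Sik2, a salt-inducible kinase, rose by 2.20 on the log2 scale in allantois cells (adjusted p = 0.00207) and had a log2 fold change of 2.31 in neural cells. Both kept one level in all 4 Tet-TKO libraries, far above both WT host libraries.

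The 10 genes that fell most were Hbb-bs, Ttr, Apom, Apoa1, Hba-a2, Alas2, Cck, Rps3a1, Cited4 and Ndufa4l2. Hbb-bs and Hba-a2, globin genes, and Alas2, an enzyme of haem synthesis in red cells, had log2 fold changes of −6.18, −5.42 and −5.10 in allantois cells and of −6.20, −5.59 and −5.08 in neural cells. Ttr, Apom and Apoa1, secreted by the visceral endoderm, had log2 fold changes of −5.95, −5.83 and −5.43 in allantois cells and of −6.18, −5.70 and −5.07 in neural cells. Cited4 was at 1.48, 1.14, 0.590 and 0.667 CPM against 12.04 and 22.3 CPM, and Ndufa4l2, a mitochondrial protein induced by low oxygen, at 17.4, 9.46, 8.26 and 3.87 CPM against 129 and 79.5 CPM. Their log2 fold changes were −3.95 and −3.33 in allantois and −2.88 and −2.44 in neural cells.

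Markers of red cells and visceral endoderm as whole lists moved with genotype in allantois and in neural cells alike. Of 12 erythroid markers 6 fell and 0 rose, where 0.637% of all genes fell, and their summed level was 103, 99.5, 546 and 7.47 CPM in Tet-TKO and 2875 and 6996 CPM in WT host allantois cells. In neural cells the sum was 33.0, 296, 326 and 8.60 CPM against 2729 and 6955 CPM. Of 10 visceral endoderm markers 9 fell and 0 rose, again against 0.637% of all genes that fell, with sums of 13.2, 10.8, 11.2 and 9.74 CPM against 205 and 145 CPM in allantois cells and of 8.48 to 13.2 CPM against 264 to 299 CPM in neural cells. The globin gene Hbb-bt and the erythroid nuclear gene Hemgn were at 0 CPM in at least 1 Tet-TKO library each. Levels of these lists in allantois cells were thus of the same order as those in cells of another germ layer from the same library. Without the endothelial-marked and haemoglobin-rich cells, 708, 995, 123, 40, 418 and 264 cells were left and 12079 genes were tested. Of these genes 21 were called higher and 35 lower, and 52 of the 130 calls were among them. Without the cells marked as doublets 33 were called higher and 59 lower, and 84 of the 130 were among them. Fewer cells alone also went with fewer calls, since 54 of the 130 remained with 97 cells in each library. The part of free RNA in the calls was not tested.

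**Figure D4:**
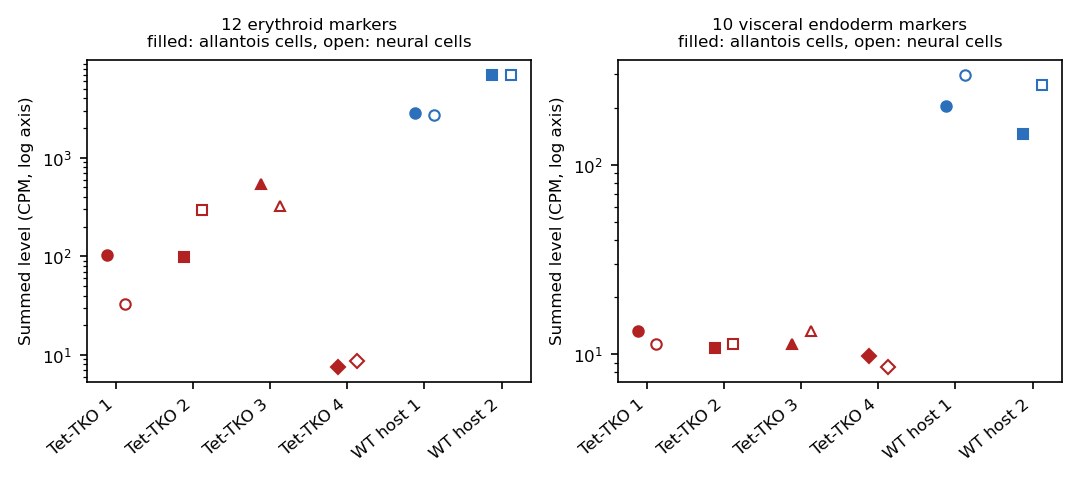
Summed level of 12 erythroid and 10 visceral endoderm markers in CPM (log axis) in allantois cells (filled) and neural reference cells (open) of each library. In WT host library 2 the erythroid sum was 6996 CPM in allantois and 6955 CPM in neural cells, and both lists were lower in every Tet-TKO library.

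Other marker lists held few calls. Of the 10 extraembryonic mesenchyme markers 0 passed in either tool and 2 had an unadjusted p under 0.05, with sums of 1126 to 1449 CPM in Tet-TKO and 1373 and 1463 CPM in WT host cells. Summed caudal progenitor markers were at 62.0 to 77.3 against 47.9 and 53.2 CPM, lateral plate and heart markers at 320 to 414 against 389 and 589 CPM, and neural markers at 39.5 to 50.2 against 38.4 and 53.5 CPM. Of these 3 lists 0 genes passed in edgeR, with 4, 4 and 2 under an unadjusted p of 0.05, and DESeq2 called T as higher and Actc1 as lower. Summed endoderm markers were at 73.8 to 146 against 196 and 225 CPM, trophoblast markers at 31.6 to 48.4 against 60.3 and 69.3 CPM, immune and platelet markers at 0.667 to 0.987 against 3.67 and 4.91 CPM, and markers of intermediate and paraxial mesoderm at 43.8 to 72.3 against 51.4 and 69.8 CPM. In these 4 lists 0 genes passed in edgeR or DESeq2, and 2 in each, of 10, 4, 2 and 9 tested, had an unadjusted p under 0.05, where 15.3% of all genes did. Primordial germ cell markers stood at 79.4 to 85.7 against 47.6 and 53.2 CPM, and their only call was Dppa4. Xist, which coats the inactive X chromosome, was at 0.253 to 4.80 CPM against 199 and 305 CPM, and the Y-linked Eif2s3y at 1.43 to 3.07 CPM against 15.9 and 24.6 CPM, so sex-linked transcripts differed between genotypes too.

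Many called genes had a similar log2 fold change in neural cells. A group with smaller or untested values there was chosen after the values were seen, so the neural values of its genes are part of the choice. Of 56 protein-coding called genes at 10 CPM or more with non-overlapping libraries, 22 entered this group, 20 with an absolute log2 fold change below 1 in neural cells and 2, Cck and Acvrl1, too low there to be tested. Of the 22, 11 were higher and 11 lower in Tet-TKO allantois cells, and 2, Cck and Cxcl12, had a called difference of effect from the Hand1 Bmp4 Foxf1 mesoderm. Cck, the peptide hormone cholecystokinin, was at 0.461, 0.409, 0.506 and 0.267 CPM in Tet-TKO and 10.7 and 11.4 CPM in WT host allantois cells. Every Tet-TKO library was far below both WT host libraries (log2 fold change −4.64 ± 0.24, adjusted p = 0.000198). In neural cells Cck was at 0 to 0.273 CPM against 0.401 and 1.10 CPM, lower in every Tet-TKO library there too, at levels too low to be tested.

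Rprm, a target of p53 that halts the cell cycle, was at 16.4, 18.8, 16.0 and 27.9 CPM in Tet-TKO and 2.90 and 1.70 CPM in WT host cells. It was higher in every Tet-TKO library (log2 fold change 3.02 ± 0.32, adjusted p = 0.00324), while its neural levels of 12.9 to 20.9 against 16.8 and 19.3 CPM overlapped between genotypes. In the Hand1 Bmp4 Foxf1 mesoderm Rprm was at 12.8, 11.4, 10.0 and 12.1 CPM against 4.59 and 1.18 CPM, again higher in every Tet-TKO library, with a log2 fold change of 1.94. Cxcl12, the chemokine that CXCR4 recognises, was at 24.2, 26.2, 21.6 and 30.3 CPM against 6.32 and 9.96 CPM, with no overlap (log2 fold change 1.68 ± 0.23, adjusted p = 0.00868, with −0.35 in neural cells and 0.36 in the mesoderm).

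The promoters of Cck, Rprm and Cxcl12 are shown with their CG dinucleotides, the sites that TET enzymes act on when methylated. The windows run from 250 bases before to 50 bases after the start of transcription, as RefSeq gives them on GRCm38.p6. The paper places TET-dependent demethylation at distal regulatory regions and reports negligible effects at promoters. Capitals mark each CG, a motif that reads the same on both strands. The window of Cck is chr9:121495645-121495944 on the minus strand, that of Rprm chr2:54085503-54085802 on the minus strand and that of Cxcl12 chr6:117168285-117168584 on the plus strand.
Cck: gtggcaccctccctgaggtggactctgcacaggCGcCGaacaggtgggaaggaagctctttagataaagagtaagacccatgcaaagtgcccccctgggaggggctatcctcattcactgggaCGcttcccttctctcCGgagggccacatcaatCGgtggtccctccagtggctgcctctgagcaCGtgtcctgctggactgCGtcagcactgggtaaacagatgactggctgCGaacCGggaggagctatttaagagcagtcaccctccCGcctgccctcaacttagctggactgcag
Rprm: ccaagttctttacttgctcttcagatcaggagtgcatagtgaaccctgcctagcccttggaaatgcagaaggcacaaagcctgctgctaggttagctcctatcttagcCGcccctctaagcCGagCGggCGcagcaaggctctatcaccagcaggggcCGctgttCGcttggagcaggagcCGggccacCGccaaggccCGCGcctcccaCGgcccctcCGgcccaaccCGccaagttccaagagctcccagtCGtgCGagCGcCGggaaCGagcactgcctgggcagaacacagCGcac
Cxcl12: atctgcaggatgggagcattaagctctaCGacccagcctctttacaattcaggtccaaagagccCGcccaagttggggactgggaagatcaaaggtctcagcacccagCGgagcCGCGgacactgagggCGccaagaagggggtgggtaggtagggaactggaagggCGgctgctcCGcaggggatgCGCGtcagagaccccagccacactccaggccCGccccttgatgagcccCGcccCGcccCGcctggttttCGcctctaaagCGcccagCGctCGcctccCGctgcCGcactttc
These windows of 300 bases hold 10 CG for Cck, 19 for Rprm and 20 for Cxcl12. Over 32851 promoter windows of this length 94.6% held at least 1 CG, the median was 7, and 43.5%, 28.1% and 26.5% held as many as Cck, Rprm and Cxcl12 or more. Methylation at these sites was not analysed.

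The other genes that rose in this group included Rgs10, which curbs G-protein signalling, at 40.4, 53.9, 56.6 and 57.1 CPM against 15.9 and 14.5 CPM (log2 fold change 1.76 ± 0.16, adjusted p = 0.00207, with −0.43 in neural cells and 1.71 in the mesoderm). Nfib, a transcription factor, rose by 1.49, Hopx, an atypical homeodomain protein, by 1.42, the laminin receptor chain Itga6 by 1.13 and the guidance receptor Epha4 by 1.13 on the log2 scale. Their neural log2 fold changes were −0.51, −0.99, 0.32 and −0.13, and those in the mesoderm 0.84, 0.35, 0.60 and 0.57. Anpep, a membrane aminopeptidase, was at 10.1 to 15.5 CPM in Tet-TKO and 2.68 and 3.01 CPM in WT host cells (log2 fold change 2.16, adjusted p = 0.00282, with 0.86 in neural cells and 1.22 in the mesoderm). In neural cells it was at 0.819 to 1.16 CPM against 0.535 and 0.572 CPM, higher in every Tet-TKO library there too.

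Among the genes that fell was Acvrl1, the receptor ALK1 through which endothelium senses BMP9, at 7.01, 5.64, 7.42 and 6.14 CPM in Tet-TKO and 28.2 and 25.6 CPM in WT host cells. Its Tet-TKO levels were all lower (log2 fold change −2.03 ± 0.15, adjusted p = 0.00112), and the log2 fold change in the mesoderm was −1.34. In neural cells Acvrl1 was at 0.0406 to 0.164 CPM against 0.334 and 0.334 CPM, also lower in every Tet-TKO library, and was not tested there. Gas6, the ligand of the TAM receptors, was at 3.74 to 6.00 against 21.2 and 21.4 CPM (log2 fold change −2.06, adjusted p = 0.00220, and −0.90 in neural cells). In the mesoderm its log2 fold change was −2.41. Naaa, a lysosomal amidase, had a log2 fold change of −2.52, Daam2, a formin of the Wnt pathway, of −1.72 and Ngfr, a neurotrophin receptor, of −1.06, with neural values of −0.57, −0.28 and 0.44 and mesoderm values of −2.07, −0.61 and −1.36.

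Gclc, which makes the first step of glutathione synthesis, was at 33.1, 31.6, 34.5 and 34.8 CPM against 65.0 and 70.0 CPM, at one level within each genotype (log2 fold change −1.01 ± 0.10, adjusted p = 0.00275). Its log2 fold change was −0.33 in neural cells and −0.53 in the mesoderm, and in both it was lower in every Tet-TKO library. Crmp1 and Cyth1 had log2 fold changes of −1.85 and −1.48, with −0.72 and −0.40 in neural cells and −1.69 and −0.64 in the mesoderm. Apart from Cck, each gene named from this group lost its call without either one of the WT host libraries.

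The difference between genotypes within a population is called the effect below, and strain and culture history cannot be separated from it. To compare it with that in another extraembryonic mesoderm, cells with UMIs of Hand1, Bmp4 and Foxf1 and none of Tbx4 were used (4364 cells). Whether a Tbx4 UMI is found depends on depth, so these cells can include allantois cells whose Tbx4 was missed. Pitx1, Spin2c and Phlda2 were found in part of them, as given above. The populations are thus not cleanly separated, and the share of such cells was not tested. In an edgeR model with the library as a block, the difference of the effect passed an adjusted p of 0.05 for 88 of 14855 genes (0.592%), being higher in allantois cells for 77 (0.518%) and lower for 11 (0.074%). In the mesoderm itself 0.285% of genes passed the test between genotypes. Counts of differences depended on the libraries, with 10 to 69 higher and 1 to 11 lower when 1 library was left out, the lowest being 10 and 1 without WT host library 2. They were 33 and 4 without WT host library 1, and 39 and 5 without Tet-TKO library 3. All log2 values that follow are for Tet-TKO over WT host within a population, or the difference between them.

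Cck had the largest difference among named genes. In the comparison mesoderm it was at 0.904, 0.673, 2.33 and 0.641 CPM in Tet-TKO and 1.39 and 2.49 CPM in WT host cells, which overlap, with a log2 fold change of −0.79 against −4.64 in allantois cells. The difference was −3.79 ± 0.43 on the log2 scale (adjusted p = 0.00579) and passed in all 11 alternatives. Bnc1, a zinc finger gene, followed with a difference of 2.97 (log2 fold change 2.08 in allantois cells and −0.87 in the mesoderm), then Galnt14 with 2.44 (0.63 and −1.91), the receptor gene Epha5 with 2.04 (0.82 and −1.20) and Fndc5, the irisin precursor, with 1.89 (0.23 and −1.66). Levels of Bnc1 and Galnt14 in allantois cells were under 2 CPM, and both differences lost their call in at least 6 settings.

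Genes of smooth muscle and mesenchyme made up 8 of the 77 genes with a higher effect in allantois cells. They were 8 of 25 tested in that list, where 0.518% of all genes passed in this direction, with a median difference of 0.59 against 0.02 over all genes. Of the 10 extraembryonic mesenchyme markers 4 passed in the same direction, with a median difference of 0.77. These were Krt8, Krt18 and Ahnak, which both lists hold, and Col1a1. The summed level of these 10 markers in the mesoderm was 2423, 2842, 2858 and 2745 CPM in Tet-TKO and 3986 and 4762 CPM in WT host cells, lower in every Tet-TKO library, whereas the sums in allantois cells overlapped between genotypes. Its part in the differences of effect was not tested. Tpm1 was at 1153, 1255, 1207 and 1198 CPM in Tet-TKO and 1171 and 1235 CPM in WT host cells of the mesoderm, where the genotypes overlap. Against this, its log2 fold change in allantois cells was 0.80, and the difference of 0.84 ± 0.07 (adjusted p = 0.000849) passed in all 11 alternatives. Tpm2, also a tropomyosin, had a difference of 0.59 (0.48 in allantois cells and −0.11 in the mesoderm).

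The other 6 genes were counted for a higher effect in allantois cells, so the mesoderm value is the lower one in each. Anxa2, a membrane-binding annexin, had log2 fold changes of −0.46 in allantois cells and −1.52 in the mesoderm, the giant protein gene Ahnak 0.80 and −0.29, S100a11 −0.28 and −1.09, and the actin-binding Cnn2 0.12 and −0.41. The keratins Krt8 and Krt18 had −0.15 and 0.04 in allantois cells and −0.55 and −0.35 in the mesoderm, with differences of 0.42 and 0.40. Col1a1, a chain of type I collagen from the collagen list, had −0.46 and −1.85. Anxa2 was at 109, 147, 76.6 and 63.1 CPM against 149 and 127 CPM in allantois cells and at 114, 153, 74.7 and 74.1 CPM against 265 and 335 CPM in the mesoderm. The highest levels of Anxa2 were thus those of the WT host mesoderm.

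**Figure D5:**
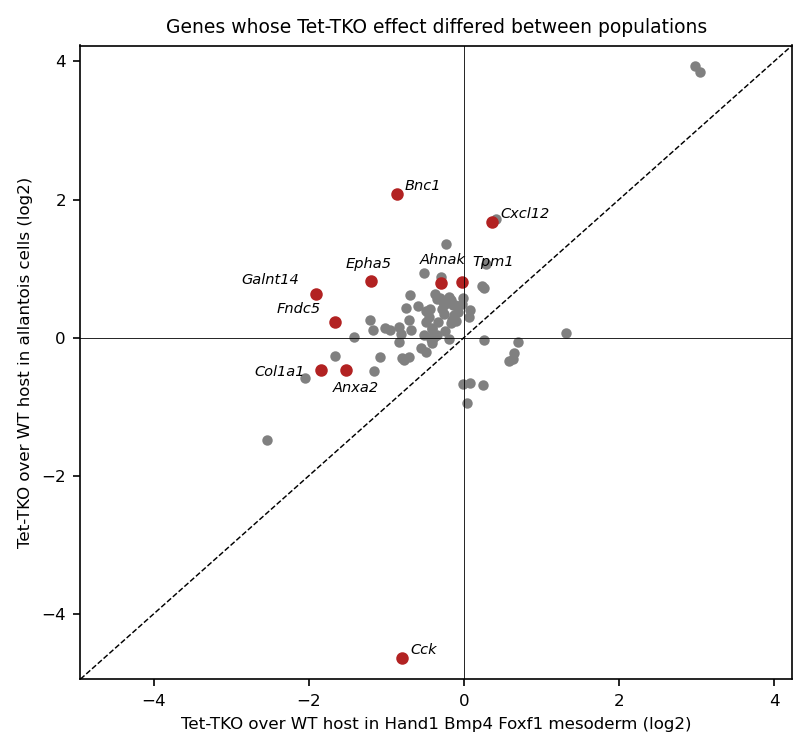
Log2 fold change of Tet-TKO over WT host in Hand1 Bmp4 Foxf1 mesoderm (horizontal axis) and in allantois cells (vertical axis) for the 88 genes whose effect differed between the populations, which were chosen for that difference. Equal effects lie on the dashed line, Cck lies below it at −0.79 and −4.64, and 77 genes lie above it, with Tpm1 at −0.02 and 0.80.

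Single genes of other lists were Prrx1, with a difference of 0.58 (0.57 in allantois cells and −0.01 in the mesoderm), the Wnt antagonist Nkd1 with 0.88 (0.05 and −0.80), the glucose transporter Slc2a3 with 1.08 (0.11 and −0.95) and Irx3, from the neural markers, with 0.90 (0.56 and −0.34). Cxcl12, which no list holds, had a difference of 1.30 (1.68 and 0.36). In the allantois list the difference passed for 0 of 9 genes, in the vasculogenesis list for 0 of 28 and among imprinted genes for 0 of 41, with medians of −0.07, −0.08 and 0.12. Of all genes 0.592% passed in either direction, so counts of 0 in these lists are near that share. They do not show that the effect was the same in both populations. Of the genes whose difference is named here, each except Cck and Tpm1 lost its call without WT host library 2, and Anxa2, Slc2a3, S100a11, Ahnak, Col1a1 and Irx3 kept theirs without WT host library 1, as Cck and Tpm1 did.

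Variation among the allantois cells themselves was described with 2 genes, Hoxa13, the last gene of the Hoxa cluster, and Kdr, the VEGF receptor of endothelial precursors, after thinning to 5000 UMIs. Hoxa13 is a gene of the rule, and the rule used the counts of these cells, so what follows is descriptive and not tested. A Hoxa13 UMI was found in 9.72%, 10.9%, 9.92% and 13.4% of Tet-TKO and in 11.7% and 9.09% of WT host allantois cells. A Kdr UMI was found in 33.5%, 28.6%, 35.3% and 39.2% against 31.6% and 27.7%. Both shares overlapped between genotypes.

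Of the Cdx and caudal progenitor list, 4 of 10 genes were lower in cells with Hoxa13 in all 6 libraries, and of the vasculogenesis list 2 of 21, where 2.78% of all genes were lower in 6 of 6. So were 3 of 19 trunk and anterior Hox genes, 3 of 5 primordial germ cell markers and 1 of 9 posterior Hox genes outside the rule, Hoxb9. The same held for 2 of 8 retinoic acid genes, 2 of 7 erythroid markers and 2 of 6 markers of intermediate and paraxial mesoderm. Cyp26a1, which degrades retinoic acid in the tail bud, was at 5.39 CPM in cells with Hoxa13 and 15.2 CPM in cells without. Cdx4 was at 26.1 and 42.1 CPM, Hoxb9 at 20.2 and 32.6 CPM, and Lmo2, a cofactor of blood and endothelial precursors, at 14.4 and 26.6 CPM. Higher in 6 of 6 libraries, as were 1.98% of all genes, were 5 of 24 mesoderm transcription factors, 5 of 21 adhesion and attachment genes, 5 of 35 imprinted genes and 3 of 23 genes of smooth muscle and mesenchyme. Among them were the T-box gene Tbx20 at 79.1 against 52.2 CPM and the hyaluronan receptor Cd44 at 54.8 against 37.9 CPM. Tet-TKO library 4 contributed 13 cells with Hoxa13, so its values rest on single UMIs for the sparser genes. In cells with Hoxa13, Cyp26a1 was at 0 CPM in Tet-TKO libraries 3 and 4 and in WT host library 2. Cdx4 and Lmo2 were at 0 CPM in those of Tet-TKO library 4. A gene at 0 there counts as lower wherever the other cells hold it, so the counts lean towards lower for sparse genes.

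In cells with Kdr, 5.26% of all genes were higher and 5.51% lower in 6 of 6 libraries. These shares are not comparable with those for Hoxa13, since a library held 38 to 441 cells with Kdr and 13 to 154 with Hoxa13. Of the vasculogenesis list, Kdr apart, 13 of 20 genes were higher in 6 of 6 libraries and 1 was lower. Etv2, which starts the endothelial programme, was at 257 CPM with Kdr and 48.2 CPM without, Hhex at 65.6 and 6.49 CPM, Tal1 at 24.4 and 3.69 CPM and Egfl7 at 131 and 51.3 CPM. Of the allantois list outside the rule, 8 of 12 genes were lower in 6 of 6 and 1 was higher, of the smooth muscle and mesenchyme list 9 of 23 were lower and 0 higher, and of the mesoderm transcription factors 8 of 24 were lower and 1 higher. Of the adhesion and attachment genes 6 of 21 were higher and 1 lower. The smooth muscle actin Acta2 was at 123 against 296 CPM, Tagln at 28.4 against 63.3 CPM, Vcam1 at 8.296 against 27.9 CPM, Hand1 at 189 against 278 CPM and Pitx1 at 251 against 361 CPM. In Tet-TKO cells Etv2 stood at 265, 178, 236 and 168 CPM with Kdr, against 392.2 and 279 CPM in WT host cells, and without Kdr at 55.3, 32.6, 40.5 and 3.39 CPM against 69.9 and 56.6 CPM. The contrast between cells with and without Kdr was thus present in both genotypes.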

How the data were processed

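Chimaeric mouse embryos were dissociated and sorted by tdTomato, and single-cell RNA-seq libraries were made on the 10x platform. The authors aligned reads with Cell Ranger to mm10 with a tdTomato sequence added, and deposited UMI counts per gene and barcode. The deposited counts are raw. They were scaled only within the tests and, for levels, to a common total per library (CPM). The matrix headers give software version 3.1.0.

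Barcodes were kept from 1500 UMIs upwards, where mitochondrial transcripts made up no more than 30% and ribosomal protein transcripts no more than 35% of them. Doublets were marked with Scrublet in scanpy 1.11.5 and left out as an alternative only. Counts were summed per library over the cells of a population and tested with the quasi-likelihood test of edgeR 4.0.16 (filterByExpr, TMM, Benjamini-Hochberg adjustment, adjusted p below 0.01 and absolute log2 fold change of at least 1) in R 4.3.3. The difference of effects between populations was tested in 1 model with a term for the library, at an adjusted p below 0.05. DESeq2 1.42.0 was the alternative. Shares and detection were computed in Python 3.11.15 (numpy 2.4.6, scipy 1.17.1, pandas 2.3.3) after thinning each cell to 5000 UMIs, with exact Clopper-Pearson intervals at 95% that cover counting error only. The two-sided exact permutation test over 4 and 2 libraries cannot give a p under 0.133. Promoter windows came from RefSeq on GRCm38.p6. In simulated counts for 13814 genes with 200 changed by 2 on the log2 scale, 99.5% were recovered in the comparison of allantois cells (1 false call) and 96% in the difference of effects (8 false calls). With changes of 1.5 these were 94.5% (3 false calls) and 80% (13 false calls), and smaller changes were not simulated. The changed genes were drawn from those above the median level, so recovery of genes at lower levels was not simulated. Libraries were simulated independently, without the likeness of Tet-TKO library 1 to 2 and of 3 to 4. For the difference of effects, both populations were drawn from the profile and dispersions of allantois cells. They were drawn independently within a library. The simulation thus had no shared library effect and no difference between cell types, and its figures for this test hold for that setting only.

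The cells and gene lists were chosen with earlier results of these data known. Genes of a list were named in order of adjusted p. Beyond the lists, the 10 genes that rose most and the 10 that fell most were named among called genes of at least 10 CPM whose Tet-TKO libraries all lay outside the WT host range, without the reporter, Xist, Tsix, Y-linked genes, genes of the rule and gene models named Gm or Rik. The 5 largest differences of effect were named under the same exclusions. Alternatives covered each library left out, pooling of Tet-TKO libraries, scaling, the count filter, the fold minimum, the number of cells, doublets, tdTomato status and other cell rules.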

Additional observations from a re-analysis of the deposited data

Results flagged for a closer look

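In 3 of the 108 values tested over the 4 Tet-TKO libraries, 1 library lay far from the other libraries by Dixon's criterion. By chance alone such a flag is expected in about 0.05 of all groups. Spin2c was at 501 CPM in Tet-TKO library 2, with the nearest library at 570 CPM. Spink1 was at 9.41 CPM in Tet-TKO library 1, with the nearest at 1.59 CPM. Epha4 was at 21.5 CPM in Tet-TKO library 2, with the nearest at 26.5 CPM.

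The effect, that is the difference between genotypes, differed between allantois cells and Hand1 Bmp4 Foxf1 mesoderm by the edgeR test for each of the following genes. Values are differences of the effect on the log2 scale. Lower and higher refer to the sign of the difference, not to the size of the effect. Cck changed more in allantois cells. Among the genes called higher, Bnc1, Cxcl12 and Tpm1 changed more in allantois cells, and Fndc5, Slc2a3, Anxa2 and Col1a1 changed more in the mesoderm. Each gene except Cck and Tpm1 lost its call without WT host library 2, as given above. The effect was lower in allantois cells for Cck, at −3.79. Higher in allantois cells were Bnc1 at 2.97, Galnt14 at 2.44, Epha5 at 2.04, Fndc5 at 1.89, Col1a1 at 1.37, Cxcl12 at 1.30, Slc2a3 at 1.08, Anxa2 at 1.06 and Ahnak at 1.03. Smaller differences were those of Irx3 at 0.90, Nkd1 at 0.88, Tpm1 at 0.84, S100a11 at 0.80, Tpm2 at 0.59, Prrx1 at 0.58, Cnn2 at 0.53, Krt8 at 0.42 and Krt18 at 0.40.

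Cells that met the rule were also counted at E7.5, in libraries that the comparisons do not use. After thinning to 5000 UMIs they were 22 of 4772 Tet-TKO cells, 0.461% (95% exact binomial interval 0.289% to 0.697%), and 24 of 6662 WT host cells, 0.360% (0.231% to 0.536%). The share that free RNA alone would give at E7.5 was not tested. With all UMIs they were 1.92% and 1.08%. With 1 library per genotype the difference between them was not tested.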

How the results depend on the processing

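The difference in the share of allantois cells kept its direction in all 14 alternatives, between 0.150 percentage points with 2 UMIs each of Tbx4 and the Hoxa genes and 6.72 points without thinning, with exact permutation p of 0.133 to 1. Leaving out 1 library gave 0.948 to 3.08 points. The count of called genes moved more. Leaving out 1 library gave 1 to 36 higher and 6 to 93 lower genes, the lowest counts being those without WT host library 1 (3 and 6) or 2 (1 and 6). Higher and lower genes numbered 20 and 58 when the Tet-TKO libraries were summed in pairs (1 with 2, 3 with 4), 112 and 194 by DESeq2, 221 and 347 without the filter on low counts, 20 and 57 with equal numbers of cells, 33 and 59 without doublets, 24 and 46 with the rule on thinned counts, and 21 and 35 without endothelial-marked and haemoglobin-rich cells. With 2 UMIs of Tbx4 and of the Hoxa genes, 35 were higher and 46 lower, against 42 and 88 with 1 UMI of each. A fit without the deeper Tet-TKO libraries 3 and 4 was chosen after seeing the data, and in it 121 were higher and 263 lower. The cause of these shifts was not tested.

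Differences of effect numbered 10 to 69 higher and 1 to 11 lower when 1 library was left out, 30 and 4 with libraries summed, and 405 and 180 without the filter. Of the posterior Hoxa genes in Tbx4 Pitx1 cells 0 were called in each alternative.

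The same replicate numbers of Tet-TKO and WT host libraries were not taken as pairs, since only 2 numbers are shared and no label ties them (the deviations of number 1 correlated at 0.305 over 7376 genes). The paper sorted pooled embryos into both fractions and set each Tet-TKO sample against a matching WT host. Matched libraries may thus exist, but which they are is not stated. With the replicate block, on libraries 1 and 2, 229 genes were higher and 466 lower, and for the difference of effects 119 and 32.

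Of 744 values for single genes with 1 library left out, 557 kept direction and call, 182 lost the call, 2 gained it and 3 turned. Of 1420 values in other settings, 1252 kept both, 116 lost the call, 49 gained it and 3 turned. Values kept include those of genes that were not called in the main fit and stayed so. Only called genes could lose a call, so the share of calls lost is larger than these counts show. Phlda2 turned to 0.00819 under the replicate block and to 0.00755 without libraries 3 and 4 (log2 fold change). Tet3 turned with equal numbers of cells, at 0.0675, and ranged from −0.162 to 0.0577 with 1 library left out.

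The 97 to 1442 allantois cells of a library limit genes of low level, and 2 WT host libraries limit each comparison.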
